A study of Mus musculus with 14 samples.

Results

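Chemokine receptors were examined in regulatory T cells (Tregs) of the mouse intestine that did or did not lose the transcription factor JunB. The set comprises 9 genes, 7 receptors of CC chemokines (Ccr1, Ccr2, Ccr4, Ccr6, Ccr7, Ccr8 and Ccr9) and 2 receptors of CXC chemokines (Cxcr3 and Cxcr6), chosen by name and found by their Ensembl identifiers among 51122 genes listed in both count tables. Members were not chosen by their values in these libraries, although results of the same data were known when the set was named.

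RNA-seq was performed on 14 libraries of sorted Tregs. In the constitutive experiment, Tregs of Peyer's patches (PP), the lymphoid follicles of the small intestine, came from Foxp3-YFP-cre males that carried either one (JunB F/+, called HET, 2 libraries) or both (JunB F/F, called KO, 2 libraries) floxed alleles of Junb. In the inducible experiment, mice with the Foxp3ERT2cre allele and a Rosa26-tdTomato reporter received 3 gavages of 8 mg tamoxifen, and Tregs positive for EGFP and tdTomato were sorted on day 7 from the colon lamina propria (3 libraries of JunB F/+ mice, called iHET, and 3 of JunB F/F mice, called iKO) and, as CD25- cells, from PP (2 iHET and 2 iKO libraries). Number 1 of each inducible group was male (Foxp3ERT2cre+) and the others female (Foxp3ERT2cre+/+), so that number and sex go together. Cre was driven by Foxp3 in all groups, so every control also carried Cre and lacked one Junb allele in its Tregs. The study's methods report promiscuous germline deletion of Junb in the Foxp3-YFP-cre line, and the sort of PP Tregs in that line was narrower than all Tregs. Compared littermates were housed together, and nothing ties the PP libraries of one line to those of the other.

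Chemokines are small secreted proteins that direct the movement of leukocytes, and their receptors are proteins with several membrane-spanning segments that signal through G proteins of the Gi class. On T cells the set of receptors carried helps to decide which tissue a cell enters or stays in. CCR7 responds to CCL19 and CCL21 and brings cells into lymph nodes and Peyer's patches, CCR9 responds to CCL25 of the small intestine, CCR6 to CCL20, and CCR1, CCR2, CXCR3 and CXCR6 to chemokines of inflamed or peripheral tissue, while CCR4 and CCR8 are receptors that tissue Tregs are known to carry.

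Most of these genes lie together on chromosome 9. In GRCm38 with GENCODE M21, Ccr9 (ENSMUSG00000029530.16, chr9:123678439-123784330, plus strand), Cxcr6 (ENSMUSG00000048521.8, chr9:123806475-123811760, plus), Ccr1 (ENSMUSG00000025804.5, chr9:123962124-123968692, minus) and Ccr2 (ENSMUSG00000049103.14, chr9:124101950-124113557, plus) follow one another with gaps of 22.1, 150.4 and 133 kb. Ccr4 (ENSMUSG00000047898.7, chr9:114490316-114504916, minus) and Ccr8 (ENSMUSG00000042262.5, chr9:120092114-120094906, plus) are on the same chromosome, with 5587 kb between them and 3584 kb from Ccr8 to Ccr9. Ccr6 (ENSMUSG00000040899.14) is at chr17:8236043-8257141 on the plus strand, Ccr7 (ENSMUSG00000037944.8) at chr11:99144196-99155077 on the minus strand and Cxcr3 (ENSMUSG00000050232.6) at chrX:101731535-101734269 on the minus strand. Of the 10260 exon bases annotated to Ccr9, 2201 also belong to AC165425.1, Gm17200 or Slc6a20a, and the other 8 members share no exon base with another gene.

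JunB is a subunit of AP-1, a dimeric factor that recognizes the letters TGANTCA, so the start regions of the members were searched for them. RefSeq start regions (GRCm38.p6), from 250 bases before to 50 bases after the start, were at hand for 8 members, and Ccr7 had none. The letters, whose reverse complement has the same form, occurred in 1 of 9 windows (Ccr6 has 2), that of Ccr4, and in 7.81% of all 32851 windows of that length. The 250 bases before the start are shown for Ccr4, with the match in capitals, 140 bases before the start, for Ccr6 and Ccr1, the members with the largest change between genotypes in PP and in colonic Tregs, and for Ccr9, the one member called lower in colonic than in CD25- PP Tregs. They are from chr9:114496545-114496794 (minus strand), chr17:8235793-8236042 (plus), chr9:123968693-123968942 (minus) and chr9:123766961-123767210 (plus).
Ccr4: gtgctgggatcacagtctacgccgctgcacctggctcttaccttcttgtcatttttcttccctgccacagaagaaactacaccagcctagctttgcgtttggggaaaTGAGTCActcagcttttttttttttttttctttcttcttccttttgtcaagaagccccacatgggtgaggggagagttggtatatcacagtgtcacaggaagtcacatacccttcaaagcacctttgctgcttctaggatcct
Ccr6: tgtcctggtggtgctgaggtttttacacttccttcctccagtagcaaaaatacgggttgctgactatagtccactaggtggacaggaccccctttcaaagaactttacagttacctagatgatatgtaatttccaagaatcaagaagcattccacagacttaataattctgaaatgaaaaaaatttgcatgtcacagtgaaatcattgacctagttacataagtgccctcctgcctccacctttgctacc
Ccr1: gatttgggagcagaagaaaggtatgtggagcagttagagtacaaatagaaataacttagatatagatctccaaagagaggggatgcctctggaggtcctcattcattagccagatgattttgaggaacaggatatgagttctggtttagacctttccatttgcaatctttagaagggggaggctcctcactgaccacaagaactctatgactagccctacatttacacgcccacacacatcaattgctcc
Ccr9: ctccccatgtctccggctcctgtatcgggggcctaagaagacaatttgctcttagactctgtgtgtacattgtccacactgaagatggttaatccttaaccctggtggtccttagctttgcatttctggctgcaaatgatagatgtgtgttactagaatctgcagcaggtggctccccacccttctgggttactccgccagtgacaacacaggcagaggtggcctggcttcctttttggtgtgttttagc
The other 3 sequences shown held no match on either strand, which says only that these letters are not in these bases. No measurement of JunB binding was analysed here.

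All 9 receptors were expressed in all populations. Levels are given in CPM (read counts scaled to library size), normalized with edgeR's TMM factors separately for each line, so that levels of the lines are set side by side without a test. Libraries held between 26274861 and 35508709 counts and the 126 values of the 9 members between 55 and 56947 counts, far above the floor of 3 counts (0.0897 to 0.111 CPM). Foxp3 was detected at 59.4 to 155 CPM in every library. Junb, the targeted gene, was at 4158 to 8449.5 CPM in the 7 HET and iHET libraries and at 559.6 to 1025 CPM in the 7 KO and iKO libraries, so that genotypes and labels matched. In bulk RNA, a difference in level cannot be told apart from a difference in the share of cells that carry the receptor.

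Per kb of exon, Ccr7 and Ccr8 were the leading receptors of each group. In PP Tregs Ccr7 was at 656 ± 172 CPM per kb in HET (SD, n = 2) and 1032 ± 1.54 in KO mice (SD, n = 2), above Ccr8 at 327 ± 7.74 and 222 ± 27.4, and their ranges did not overlap. In CD25- PP Tregs Ccr7 (467 ± 112 in iHET and 467 ± 197 in iKO mice, n = 2 each) was likewise above Ccr8 (149 ± 51.7 and 217 ± 43.8). In colonic Tregs both overlapped, with Ccr8 at 407 ± 148 and Ccr7 at 368 ± 96.0 in iHET and 344 ± 95.6 and 569 ± 154 in iKO mice (n = 3 each). A lymphoid homing receptor and a receptor of tissue Tregs thus had the highest level per length in the 3 populations, and in the colon their order could not be set.

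Cxcr6 came next in 5 of the 6 groups, at 46.8 to 49.7 CPM per kb in HET, iHET and iKO Tregs of PP and at 158 ± 52.1 and 133 ± 32.9 in colonic iHET and iKO Tregs. In PP KO Tregs, Ccr6 (58.3 ± 1.29), Cxcr3 (58.0 ± 7.49) and Cxcr6 (48.1 ± 14.1) overlapped as the next receptors. The lowest receptor was Ccr1 in the 4 groups from PP, at means of 1.08 to 2.74 CPM per kb, and Ccr9 in both colonic groups, at 4.44 ± 0.347 and 2.80 ± 0.963. The level of Ccr9 per kb rests on its long annotated exons. The plot of levels per kb shows the spread between first and last in each group.

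**Figure D1:**
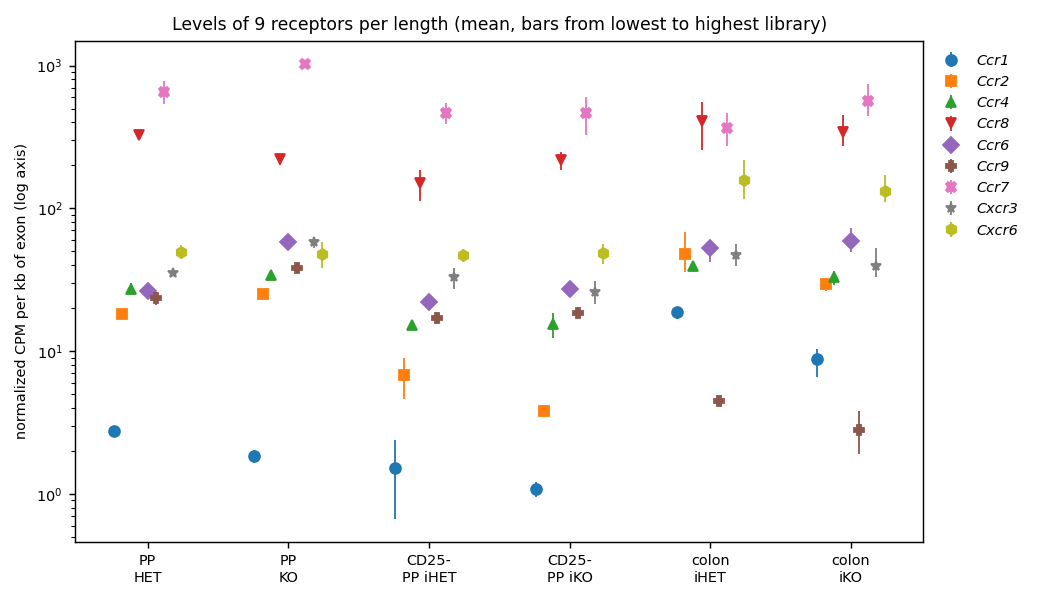
Normalized CPM per kb of exon (log axis) of the 9 receptors in each of the 6 groups, as group means with bars from the lowest to the highest library (2 libraries per PP group, 3 per colonic group). Ccr7 and Ccr8 lie at the top of every group, and Ccr1 (PP) or Ccr9 (colon) at the bottom.

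The first comparison asked how constitutive loss of JunB changed the receptors of PP Tregs. Of 9 receptors, 5 were called differentially expressed at a false discovery rate (FDR) of 0.05 with edgeR's quasi-likelihood test and Benjamini-Hochberg adjustment, against 3.35% of all 12224 genes tested. Ccr6, Cxcr3, Ccr9 and Ccr2 were higher in KO Tregs (0.990% of all genes were called higher) and Ccr8 was lower (2.36% were called lower). The groups of 2 libraries did not overlap for 8 members, all but Cxcr6, against 43.6% of all genes tested, and the median log2 fold change was 0.47 over the members and 0.003 over all genes tested.

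Ccr6, the receptor for CCL20, changed most. The HET libraries had 64.6 and 58.5 CPM, the KO libraries 137 and 133 CPM. Both KO libraries were above 2 times the level of the HET library of the same number (2.13 and 2.27 times), with a log2 fold change of 1.13 (SE, the standard error, of 0.0873, edgeR adjusted p = 0.00120), and rank 12 by p among all genes tested. With single libraries left out in turn, the log2 fold change ranged from 1.07 to 1.21 and was called each time, by fits in which the other group alone gave the spread.

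Ccr9, the receptor for the small intestinal chemokine CCL25, had 217 and 265 CPM in HET Tregs, with 383 and 403 CPM in KO Tregs. The KO libraries lay close together and above both HET libraries, at a log2 fold change of 0.70 (SE 0.105, edgeR adjusted p = 0.0138). With each of the 4 libraries left out in turn, it was called in 2 of the 4 cases (log2 fold changes of 0.57 to 0.86). Ccr6 and Ccr9, the mucosal receptors of the set, were thus both higher in KO Tregs of PP.

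Cxcr3, the receptor for interferon-induced chemokines, had 63.5 and 58.3 CPM in HET Tregs, with 109.5 and 91.2 CPM in KO Tregs, without overlap (log2 fold change 0.72, SE 0.113, edgeR adjusted p = 0.0157). Cxcr6, the receptor for CXCL16, had 85.0 and 107 CPM in HET Tregs, with 112 and 73.7 CPM in KO Tregs. Its KO libraries lay on both sides of the HET libraries, and its log2 fold change was -0.05 (95% confidence interval -0.48 to 0.39). The 2 CXC receptors thus differed in their result, although the difference between them was not tested.

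Ccr2, the receptor for monocyte chemoattractant chemokines, had 122 and 123 CPM in HET Tregs, with 167 and 172 CPM in KO Tregs. Replicates of each group were nearly equal, so that a log2 fold change of 0.47 (SE 0.0738) passed the test (edgeR adjusted p = 0.0159). Ccr1, the other inflammatory CC receptor, was low in both, at 7.40 and 8.10 CPM in HET Tregs, with 4.66 and 5.74 CPM in KO Tregs. Its groups did not overlap, but its log2 fold change of -0.57 did not pass the test (edgeR adjusted p = 0.343).

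Ccr8 was the single receptor called lower. It had 378 and 391 CPM in HET Tregs, with 238 and 283 CPM in KO Tregs, both KO libraries below both HET libraries, at a log2 fold change of -0.56 (SE 0.0981, edgeR adjusted p = 0.0239). Ccr4, which is carried with Ccr8 by tissue Tregs, had 92.2 and 77.0 CPM in HET Tregs, with 99.0 and 112 CPM in KO Tregs, a log2 fold change of 0.32 (95% confidence interval 0.06 to 0.58) that did not pass (edgeR adjusted p = 0.220). Ccr7 had 1056 and 1538 CPM in HET Tregs, with 2039.6 and 2044 CPM in KO Tregs. Its KO libraries were nearly equal while its HET libraries differed, and its log2 fold change of 0.65 (SE 0.162) did not pass in the quasi-likelihood test (edgeR adjusted p = 0.0826), but passed in edgeR's exact test, which the study used (adjusted p = 0.00479, with 5.64% of all genes called).

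These calls rested on 2 libraries per group. Without HET library 1, 1 member (Ccr6) was called, against 0.426% of all genes. Without HET library 2 or KO library 2, 3 members were called (1.11% and 1.81% of genes), and without KO library 1, 4 members (2.44%). In each such fit 1 group held a single library, assumed to vary like those of the other group, which alone gave the spread. Transcripts of other cells also differed between the genotypes. Of 10 markers of intestinal epithelium, 7 were called lower in KO Tregs (with Cldn7 and Krt8 at the lowest p), against 2.36% of all genes tested. The 10 markers summed to 142 and 178 CPM in HET, against 51.7 and 60.8 CPM in KO libraries. Of 10 B cell markers, 9 had a lower and none a called value in KO Tregs. Their sums were 195 and 234 CPM in HET, against 109.6 and 177 CPM in KO libraries. B cells can also express Ccr6, Ccr7 and Ccr9, of which Ccr6 and Ccr9 were called higher and Ccr7 was not called. Of 12 myeloid and dendritic markers, 7 were tested and none called, with sums of 119 and 187 CPM in HET, against 129 and 159 CPM in KO libraries, and none of the 12 was at 0 in all libraries of a group. The part of these transcripts in the receptor values was not tested.

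**Figure D2:**
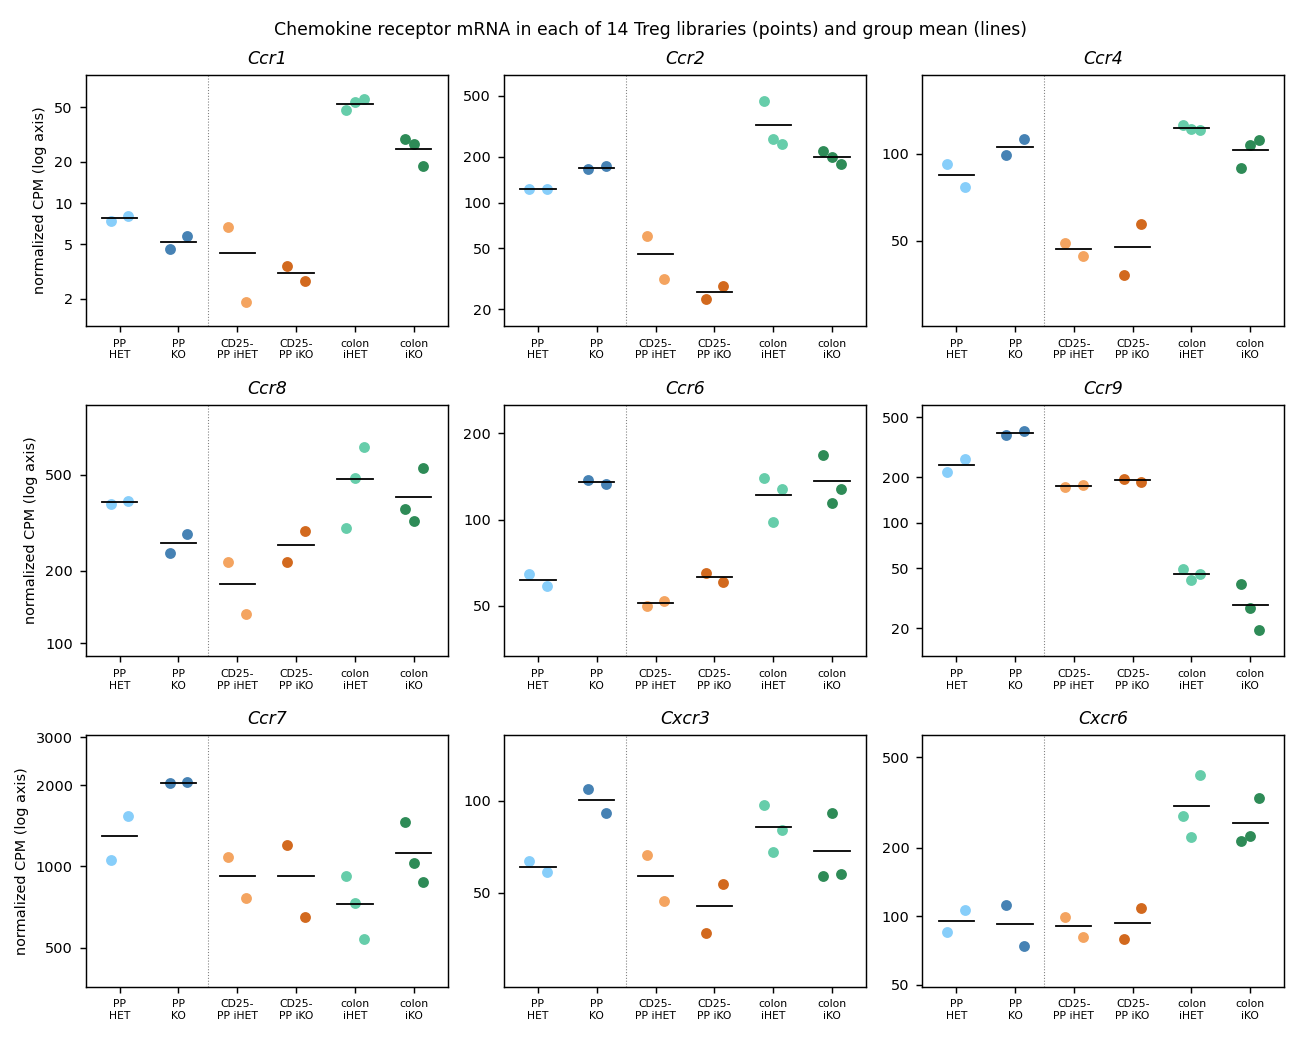
Normalized CPM (log axis) of each receptor in each of 14 libraries (points) and the group means (lines), with the constitutive line to the left and the inducible line to the right of the dotted line, normalized separately. Ccr6 is at 58.5 to 64.6 CPM in PP HET and 133 to 137 CPM in PP KO Tregs, and Ccr1, Ccr2 and Cxcr6 are higher and Ccr9 lower in the colonic than in the CD25- PP libraries.

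The second comparison addressed CD25- PP Tregs 7 days after deletion began. None of the 9 receptors was called by edgeR's quasi-likelihood test, nor by its exact test or DESeq2. No gene of 17079 tested was called by the quasi-likelihood test (0%), 43 were by the exact test (0.252%), and Junb itself had a log2 fold change of -2.44 with an edgeR adjusted p of 0.0940. At an unadjusted p under 0.05 stood 1 member, Ccr2, against 3.62% of genes. The replicates were less alike than in the constitutive line, with a common biological coefficient of variation of 25.8% against 14.9%.

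Ccr2 had 60.2 and 31.4 CPM in iHET Tregs, with 23.2 and 28.2 CPM in iKO Tregs. Both iKO libraries were below both iHET libraries, but the iHET libraries themselves differed widely, and the log2 fold change of -0.84 (95% confidence interval -1.59 to -0.09, unadjusted p = 0.0340) did not pass (edgeR adjusted p = 0.999). Without a filter on low counts, Ccr2 was called (edgeR adjusted p = 0.00428), as were 232 of 42641 genes. It was also called without iHET library 2, the lower of its group (edgeR adjusted p = 0.0383), and in no other alternative (adjusted p of 0.781 to 1).

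Ccr6 had 50.005 and 52.1 CPM in iHET Tregs, with 65.2 and 60.6 CPM in iKO Tregs, and Ccr9 had 173 and 179 CPM in iHET Tregs, with 194 and 187 CPM in iKO Tregs. Both had iKO libraries above both iHET libraries, with log2 fold changes of 0.29 (95% confidence interval -0.03 to 0.61) and 0.10 (-0.18 to 0.39) that did not pass. Ccr8 had 218 and 133 CPM in iHET Tregs, with 218 and 291 CPM in iKO Tregs, a log2 fold change of 0.53 (-0.10 to 1.16). For Ccr6, the interval lies below that of the constitutive experiment (0.93 to 1.34), and for Ccr8 it lies above (-0.79 to -0.33), but lines, sort gates and tables differed and the difference was not tested.

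The groups did not overlap for 3 members (Ccr2, Ccr6 and Ccr9), against 32.1% of genes, a share near that of the members. Ccr7 had 1079.9 and 766 CPM in iHET Tregs, with 1200.2 and 649 CPM in iKO Tregs, a log2 fold change of -0.005 with a wide interval (-0.75 to 0.74). Ccr1 (1.89 to 6.71 CPM over the 4 libraries), Ccr4 (37.9 to 57.3), Cxcr3 (37.0 to 66.6) and Cxcr6 (79.2 to 109) had log2 fold changes of -0.49, 0.01, -0.34 and 0.05. The intervals reach to 0.54 on the log2 scale for Ccr4 and to -1.92 for Ccr1, so that differences of that size were not excluded by these libraries.

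The next comparison addressed colonic Tregs 7 days after deletion began, with mouse number in the fit, taken to stand for cage, since the study's fit held cage with an iHET and an iKO mouse in each. No receptor was called by the quasi-likelihood test, in which Junb alone of 16313 genes passed (0.00613%). At an unadjusted p under 0.05 stood 4 members, Ccr7, Ccr1, Ccr2 and Ccr9, against 3.87% of genes. The likelihood ratio test that the study used called 25 genes (0.153%), with Ccr1 and Ccr7 among them. DESeq2 called 50 genes (0.307%), with Ccr1, Ccr7 and Ccr2 among them.

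Ccr1, a receptor for inflammatory chemokines such as CCL3 and CCL5, was at 47.7, 54.6 and 58.1 CPM in iHET and 29.4, 26.9 and 18.7 CPM in iKO Tregs. Every iKO library was below every iHET library, with a mean of 25.0 ± 5.58 against 53.5 ± 5.26 CPM (SD, n = 3 each). The log2 fold change was -1.12 (SE 0.210), with an edgeR adjusted p of 0.947 in the quasi-likelihood test, 0.0148 in the likelihood ratio test and 6.5e-04 in DESeq2. Its unadjusted p of 0.00237 had rank 23 of all genes.

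Ccr7 was at 918, 728 and 538 CPM in iHET and 1465, 1032 and 877 CPM in iKO Tregs. The groups overlapped, but within each number the iKO library was higher, by 1.42 to 1.63 times. The log2 fold change was 0.62 (SE 0.103, unadjusted p = 0.00128, rank 13), with an edgeR adjusted p of 0.947 in the quasi-likelihood test and 0.0118 in the likelihood ratio test. In both genotypes the mouse of number 1 had the highest value and that of number 3 the lowest.

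Ccr2 was at 461, 262 and 244 CPM in iHET and 216, 199 and 179.6 CPM in iKO Tregs, without overlap. The number 1 iHET library, from a male, stood above the rest, and the log2 fold change was -0.65 (SE 0.166, unadjusted p = 0.00977). It passed in DESeq2 (adjusted p = 0.0483) but in neither edgeR test (adjusted p = 0.947 in the quasi-likelihood and 0.226 in the likelihood ratio test). Left out in turn, single libraries gave log2 fold changes of -0.78 to -0.42.

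Ccr9 was at 49.1, 42.0 and 45.7 CPM in iHET and 39.2, 27.4 and 19.6 CPM in iKO Tregs, all iKO libraries below all iHET libraries (log2 fold change -0.72, SE 0.205, unadjusted p = 0.0146, edgeR adjusted p = 0.947). Ccr4 was at 126, 122 and 121 CPM in iHET and 89.7, 107 and 112 CPM in iKO Tregs, also without overlap, with a log2 fold change of -0.26 (95% confidence interval -0.55 to 0.02). Neither passed in any of the tests run. In 4 of the 9 members, the colonic groups did not overlap, against 8.35% of all genes tested, and in all 4 the iKO libraries were the lower ones (4.49% of genes).

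The other 4 receptors overlapped between genotypes in the colon. Ccr6 was at 140.3, 98.1 and 128 CPM in iHET and 168, 115 and 128 CPM in iKO Tregs, a log2 fold change of 0.16 (95% confidence interval -0.10 to 0.42). Ccr8 was at 301 to 650.1 CPM, Cxcr3 at 56.8 to 97.2 CPM and Cxcr6 at 215 to 418 CPM over the 6 libraries, with log2 fold changes of -0.21, -0.28 and -0.23. The median over the members was -0.26, against 0.005 over all genes tested.

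Markers of other cells varied widely between colonic libraries. The sum over 12 myeloid and dendritic markers was 136 to 353 CPM in iHET and 149 to 259.7 CPM in iKO libraries. Of the 8 tested, 6 had a lower and 2 a higher value in iKO Tregs, and none was called (median log2 fold change -0.31). Csf1r was at means of 25.5 CPM in iHET and 16.1 CPM in iKO Tregs. Lyz2 was at means of 75.2 and 69.1 CPM, and Zbtb46 at 42.8 and 50.5 CPM. The sum over 10 epithelial markers was 261 to 1088 CPM in iHET and 185 to 1906 CPM in iKO libraries, with none called. The iKO library with the highest epithelial sum had the lowest Ccr1 and Ccr9. Without that library, Ccr1 and Ccr9 had log2 fold changes of -0.86 and -0.47. The iHET library with the highest epithelial sum (1088 CPM) had Ccr1 at 54.65 CPM and Ccr9 at 42.0 CPM. The iKO library with the lowest epithelial sum (185 CPM) had Ccr1 at 29.4 CPM and Ccr9 at 39.2 CPM. The part of these transcripts in the receptor values was not tested.

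**Figure D3:**
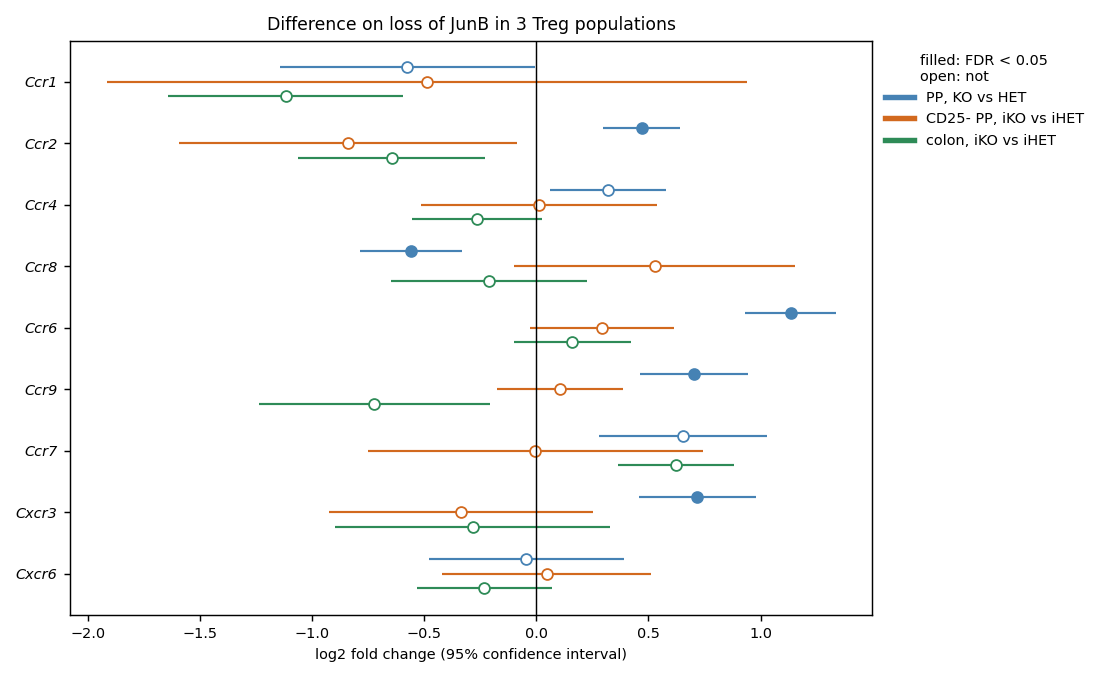
Log2 fold changes on loss of JunB with 95% confidence intervals for each receptor in PP (blue), CD25- PP (orange) and colonic (green) Tregs. Filled points passed an FDR of 0.05 in edgeR's quasi-likelihood test, which 5 receptors did in PP Tregs and none in the other populations.

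**Figure D4:**
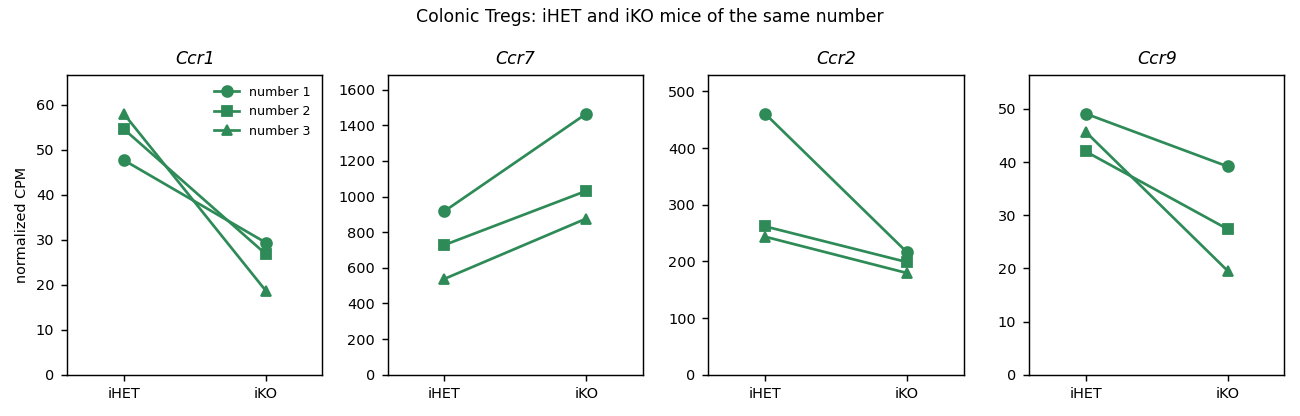
Normalized CPM of 4 receptors in colonic iHET and iKO Tregs, with a line between mice of the same number. Ccr1, Ccr2 and Ccr9 are lower and Ccr7 is higher in the iKO mouse of each of the 3 numbers.

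Side by side, the 3 comparisons gave some receptors values of unlike sign. For Ccr2 the log2 fold changes were 0.47 in PP, -0.84 in CD25- PP and -0.65 in colonic Tregs, and for Ccr9 they were 0.70, 0.10 and -0.72. Ccr7 had 0.65 in PP and 0.62 in colonic Tregs, with -0.005 in CD25- PP Tregs. Ccr1 was below 0 in all 3 (-0.57, -0.49 and -1.12) and Ccr6 above 0 in all 3 (1.13, 0.29 and 0.16). Differences between the 2 lines were not tested. Those between CD25- PP and colonic Tregs were tested with an interaction term, described below, by which no member was called. Between the 2 lines, duration of loss, sort gate and sequencing run differed together and cannot be told apart.

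The last comparison set colonic against CD25- PP Tregs of the inducible line in 1 fit of 10 libraries. Organ and the CD25- gate differed together and cannot be told apart. Of 9 receptors, 7 were called, 6 higher and 1 lower in the colon, against 17.3% of 18626 genes tested. The libraries of the organs did not overlap for the same 7 members, against 16.4% of genes. The median log2 fold change was 1.19 over the members and 0.001 over all genes.

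The inflammatory CC receptors differed most. Ccr1 was at 18.7 to 58.1 CPM (median 38.6) in the 6 colonic and 1.89 to 6.71 CPM in the 4 CD25- PP libraries, a 9.96-fold difference (log2 fold change 3.32, SE 0.331, edgeR adjusted p = 3.1e-04). Ccr2 was at 179.6 to 461 CPM (median 229.95) in the colonic and 23.2 to 60.2 CPM in the CD25- PP libraries, a 7.35-fold difference (log2 fold change 2.88, SE 0.248, edgeR adjusted p = 1.6e-04). For both, the lowest colonic library was well above the highest CD25- PP library.

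Ccr9 was the receptor with the opposite sign. It was at 19.6 to 49.1 CPM (median 40.6) in the colonic and at 173, 179, 194 and 187 CPM in the CD25- PP libraries, 5.07-fold lower in the colon (log2 fold change -2.34, SE 0.163, edgeR adjusted p = 4.5e-05). Ccr6, the other mucosal receptor, was at 98.1 to 168 CPM (median 128) in the colonic and 50.005 to 65.2 CPM in the CD25- PP libraries, 2.28-fold higher in the colon (log2 fold change 1.19, SE 0.139, edgeR adjusted p = 6.8e-04).

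Cxcr6 was at 215 to 418 CPM in the colonic and 79.2 to 109 CPM in the CD25- PP libraries (log2 fold change 1.60, SE 0.209, edgeR adjusted p = 0.00120). Ccr4 was at 89.7 to 126 CPM against 37.9 to 57.3 CPM (log2 fold change 1.25, SE 0.129, edgeR adjusted p = 3.6e-04). Ccr8 was at 301 to 650.1 CPM against 133 to 291 CPM (log2 fold change 1.05, SE 0.247, edgeR adjusted p = 0.0178). Cxcr6, Ccr4 and Ccr8 were thus higher in the colon without overlap, though the lowest colonic value of Ccr8 was near its highest value in CD25- PP Tregs.

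Cxcr3 overlapped, at 56.8 to 97.2 CPM in the colonic and 37.0 to 66.6 CPM in the CD25- PP libraries (log2 fold change 0.56, edgeR adjusted p = 0.0697). Ccr7 overlapped widely, at 538 to 1465 CPM in the colonic and 649 to 1200.2 CPM in the CD25- PP libraries, at a log2 fold change of -0.03 whose 95% confidence interval ran from -0.53 to 0.47. At unadjusted p, 8 of 9 members were under 0.05, against 33.0% of genes.

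Within iHET mice, the same 7 receptors were called (6.45% of genes were), and within iKO mice 6 (4.07%), all but Ccr8, whose log2 fold change was 1.44 in iHET (edgeR adjusted p = 0.0418) and 0.67 in iKO mice (edgeR adjusted p = 0.303). Whether the organ difference depended on JunB was asked with an interaction term, for which no gene was called by edgeR's quasi-likelihood test (0%). At an unadjusted p under 0.05 stood 1 member, Ccr9 (difference of log2 fold changes -0.78, 95% confidence interval -1.51 to -0.05, unadjusted p = 0.0387, edgeR adjusted p = 0.9999), against 3.34% of genes, and DESeq2 called none of the members either. The interval for Ccr8 (-1.84 to 0.29) and that for Ccr1 (-1.92 to 0.70) were wide.

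**Figure D5:**
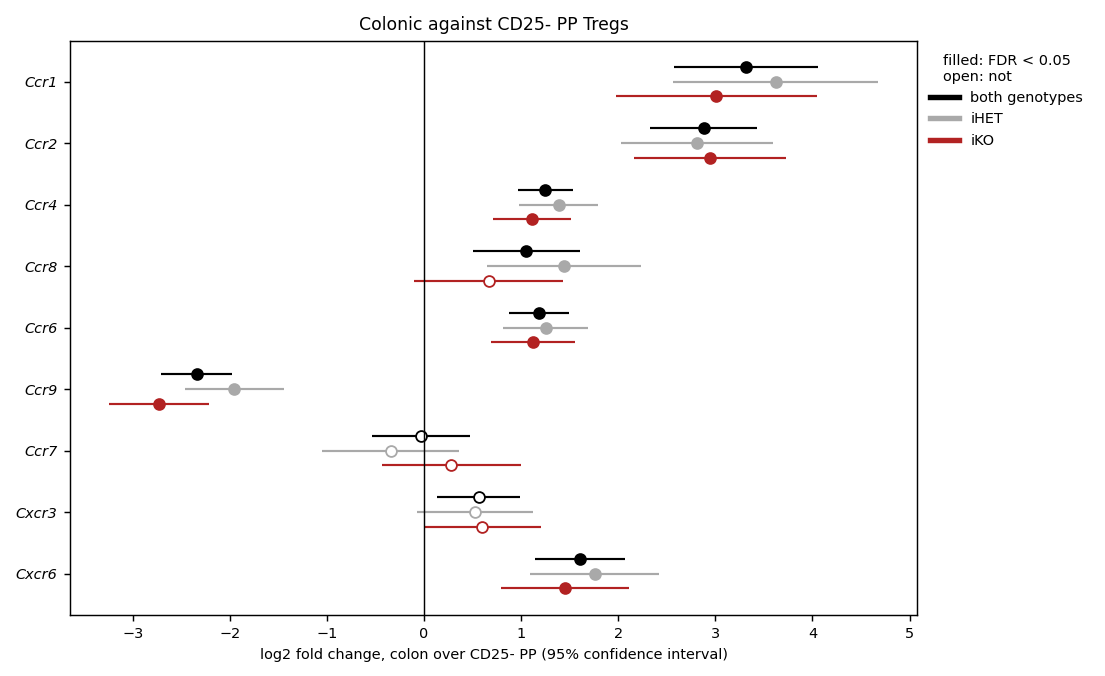
Log2 fold changes between colonic and CD25- PP Tregs with 95% confidence intervals, over both genotypes (black), within iHET (grey) and within iKO mice (red), with filled points for an FDR under 0.05. Ccr1 and Ccr2 are highest in the colon, Ccr9 is lower there, and Ccr7 lies near 0.

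Markers of other cells also differed with organ, in a comparison that called 17.3% of all genes tested. Of 12 myeloid and dendritic markers, 4 were called higher in the colon (Zbtb46, Cd14, Csf1r and Itgax), with sums of 136 to 353 CPM in the colonic and 67.0 to 108 CPM in the CD25- PP libraries, and Fcgr1 was at 0 in the latter. Macrophages and monocytes carry Ccr1 and Ccr2. Csf1r, which marks them, was at 10.3 to 38.1 CPM in colonic and 2.47 to 7.84 CPM in CD25- PP libraries. Adgre1, another marker of this list, was at 45.0 to 56.9 CPM in colonic and 41.1 to 55.8 CPM in CD25- PP libraries. Of the 9 markers of the list that were tested, 8 had a higher and 1 a lower value in the colon. Of 10 epithelial markers, 5 were called higher and 1 lower in the colon. Their sums were 185 to 1906 CPM in the colon and 174 to 405 CPM in CD25- PP libraries. B cell sums were 56.3 to 119 CPM and 97.9 to 131 CPM, with Cd22 and Pax5 called lower in the colon. With any one of the 6 colonic libraries left out, 7 members were called (11.4% to 21.4% of genes), and with any one of the 4 CD25- PP libraries left out, 6 or 7 (7.56% to 10.2%). The part of these transcripts in the receptor values was not tested.

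Other genes of the chemokine system were taken from fixed lists, chosen with earlier results of these data known. In PP Tregs, 3.35% of all 12224 genes tested were called. In PP Tregs, 1 of 5 tested other chemokine receptors was called, the scavenging receptor Ackr3, with 3.67 and 3.38 CPM in HET Tregs, against 0.466 and 0.518 CPM in KO Tregs (log2 fold change -2.76, edgeR adjusted p = 0.0132). Of 10 tested ligands, Ccl6 was called lower (edgeR adjusted p = 0.0224), at 1.24 to 3.03 CPM in HET and 0.0370 to 0.143 CPM in KO Tregs, the latter near the floor. Of 34 tested genes of receptor signalling and desensitization, 1 was called, near the share of all genes. It was Rgs16, which shortens the signal of G proteins, and was lower (log2 fold change -0.88, edgeR adjusted p = 0.00785). Its levels were 134 to 158 CPM in HET and 74.3 to 84.8 CPM in KO Tregs.

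In CD25- PP and colonic Tregs, no gene of these lists was called between genotypes by edgeR's quasi-likelihood test. The lowest p in CD25- PP Tregs were those of Cxcl10 (log2 fold change 1.11, unadjusted p = 0.0343), Grk5 (0.86, 0.0279) and Xcr1 (0.98, 0.0437), and in colonic Tregs those of Rgs10 (0.38, 0.0256) and Ackr4 (1.45, 0.0310).

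Between the organs, 17.3% of all 18626 genes tested were called. Of 17 tested ligands, 8 were called, 6 higher and 2 lower in the colon. These ligand values are RNA levels in libraries of sorted Tregs and do not measure the ligands in the tissue. The libraries also held epithelial marker transcripts, with sums of 174 to 1906 CPM. Ccl20, the ligand of CCR6, was at 69.1 to 125 CPM in the colonic and 9.39 to 27.4 CPM in the CD25- PP libraries. Its log2 fold change was 2.11 (edgeR adjusted p = 7.0e-04), and RNA of ligand and receptor was higher in the colonic libraries. Ccl25, the ligand of CCR9, was at 4.52 to 8.04 CPM against 10.4 to 20.96 CPM (log2 fold change -1.17, edgeR adjusted p = 0.00574), and RNA of both was lower in the colonic libraries. Ccl5, a ligand of CCR1, was at 5.95 to 12.8 CPM against 25.1 to 91.4 CPM (log2 fold change -2.55, edgeR adjusted p = 0.00112), lower in the colonic libraries while RNA of its receptor was higher. Of 7 tested other receptors, Xcr1, Ackr3 and Ccrl2 were called higher (log2 fold changes of 1.52, 1.62 and 1.24), and of 35 genes of signalling and desensitization 10 were called, 8 higher and 2 lower, the lowest p being those of Rgs3 and Rgs10 (log2 fold changes of -1.25 and -1.07).

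Genes of Treg states were also counted. In CD25- PP and colonic Tregs, none of the resting or effector genes was called between genotypes. In PP KO Tregs, with 3.35% of all genes called, 1 of 11 tested genes of resting Tregs was called, Il7r (log2 fold change 0.56, edgeR adjusted p = 0.0167), and 3 of 14 genes of intestinal effector Tregs, Tigit lower (-0.50) and Ebi3 and Prdm1 higher (0.81 and 0.38). Foxp3 and Il2ra, which encodes CD25, were also higher in these KO Tregs (log2 fold changes of 0.51 and 0.73, edgeR adjusted p = 0.0167 and 0.0199). In the colon, with 17.3% of all genes called, 5 of 12 resting genes were called lower and 1 higher than in CD25- PP Tregs, with Tcf7, Lef1 and Dapl1 lower (-1.44, -1.03 and -2.10), and 7 of 14 effector genes were called higher and 1 lower, with Il1rl1 and Klrg1 higher (2.71 and 3.55). Il2ra was higher in the colon (log2 fold change 1.67, edgeR adjusted p = 3.9e-05) than in PP, where the sort of CD25- cells had selected on its protein.

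The genes with the profiles most like those of the receptors over the 14 libraries were found by the root mean square of the difference in centred log2 values among 11738 genes. They are a description, since all points share the same libraries. Ccr4 was nearest to Crmp1 (0.15), Ccr6 to Cish (0.17), Ccr8 to Id2 (0.18), Ccr7 to Nsun3 (0.21), Cxcr3 to Selplg (0.23) and Cxcr6 to Trip10 (0.23). The receptors with the widest range were farther from their nearest genes, with Nckap5 at 0.38 from Ccr1, Sdc4 at 0.40 from Ccr2 and Cybb at 0.42 from Ccr9. Their own spreads were also larger, at 1.37, 1.25 and 1.03, against 0.55 for Ccr4, 0.41 for Ccr7 and 0.39 for Cxcr3. Set against own spread, Ccr1, Ccr2 and Ccr9 were thus nearer to their nearest genes than Ccr7 and Cxcr3 were. Among the members, Ccr1 and Ccr2 were at 0.45 from each other and Ccr1 and Ccr9 at 2.30.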

How the data were processed

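The authors trimmed reads with Trim Galore, aligned them to GRCm38 (mm10) with STAR without multi-mapped reads and assigned them to GENCODE genes by featureCounts with its defaults, which ignore strand. The values deposited are whole read counts per gene, not normalized, in 1 table for each of the 2 lines. Reverse reads of the inducible line had been left out by the authors.

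Gene identifiers were matched to GENCODE M21, in which all 9 members were found in both tables. The members and gene lists were chosen with earlier results of these data known. A few other receptors, 1 gene of the listed Treg states and part of the gate used for the Foxp3-YFP-cre line are not reported here. Genes named from lists are those called with the lowest p, at most 4 per list and comparison, or else the lowest p.

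Genes that reached 1 CPM in 2 or more libraries (3 or more in the colonic fit) were tested with edgeR 4.0.16 in R 4.3.3 (glmQLFit and glmQLFTest, TMM, prior count 1, Benjamini-Hochberg FDR over all genes tested). All tests are two-sided. Each genotype comparison was fitted on its own libraries, that of colonic Tregs with the mouse number as a term. The number was taken to stand for cage, which the labels do not give. The organ contrasts and the interaction came from 4 groups fitted together. Standard errors are those of the fitted log2 coefficient, and intervals cover 95%. The colonic libraries of a group are from separate animals, per the study's methods. For PP libraries nothing says so, nor which PP and colonic libraries share a mouse, so that their p-values measure the spread between these libraries. Floors of 3 counts cover counting error only, as reads carried no molecular identifiers. The scripts were tested on simulated data. Alternatives were the study's tests, DESeq2 1.42.0 (limma 3.58.1 was loaded by edgeR), its size factors, upper-quartile normalization, no filter, at least 10 counts in every library, the replicate block, a joint fit of 10 libraries and leaving out each library. Figures were drawn with matplotlib 3.10.9.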

Additional observations from a re-analysis of the deposited data

Results flagged for a closer look

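For 3 receptors, the genotypes did not overlap in PP Tregs of the constitutive line nor in 1 or both populations of the inducible line, with opposite signs. Of all genes tested in both, 6.85% did so between PP and CD25- PP Tregs and 1.49% between PP and colonic Tregs. Ccr2 was higher in both KO libraries of PP (log2 fold change 0.47) and lower in both iKO libraries of CD25- PP Tregs (-0.84). In the colon, Ccr2 was also lower in all 3 iKO libraries (-0.65, against 0.47 in PP Tregs). Ccr9 was higher in KO Tregs of PP (0.70) and lower in colonic iKO Tregs (-0.72), while in CD25- PP Tregs it was on the same side as in PP (0.10, without overlap). Ccr4 was higher in KO Tregs of PP (0.32) and lower in colonic iKO Tregs (-0.26), with edgeR adjusted p of 0.220 and 0.947, and in CD25- PP Tregs its genotypes overlapped (0.01). Only the differences of Ccr2 and Ccr9 in PP Tregs passed edgeR's quasi-likelihood test. The differences between the lines were not tested, because their libraries were counted in separate tables and differ in line, sex, gate and duration of loss together. With 2 or 3 libraries per group, no group was large enough to look for a library far from the others.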

How the results depend on the processing

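Leaving out 1 library at a time, 1 to 4 members were called in PP Tregs (5 with all; 1 without HET replicate 1), 0 to 1 in CD25- PP Tregs (Ccr2, without iHET replicate 2), 0 in colonic Tregs, 6 to 7 between organs (7 with all), 3 to 7 within iHET (3 without CD25- PP iHET replicate 2) and 1 to 6 within iKO mice (1 and 3 without CD25- PP iKO replicates 1 and 2). Where the counts in PP Tregs, within iHET and within iKO mice were lowest, the share of all genes called also fell. In colonic Tregs, 2 members were called by the likelihood ratio test (0.153% of genes), 3 by DESeq2 (0.307%) and 1 without a filter on low counts (0.0604%). In CD25- PP Tregs, 1 was called without that filter (0.544%). Without the filter, edgeR called 1305 genes in PP (409 with it), 232 in CD25- PP (0), 24 in colonic Tregs (1), 2848 within iHET (1201) and 2348 within iKO mice (758) and 282 in the interaction (0), of 30707 to 44972 tested. In no other setting did a count of members move by over 1.5 times. No called receptor changed sign in any setting. With a library left out, signs turned for Cxcr6 in PP Tregs (-0.38 to 0.22), for Ccr1 (-1.13 to 0.69), Ccr4 (-0.30 to 0.28), Ccr7 (-0.52 to 0.38) and Cxcr6 (-0.19 to 0.26) in CD25- PP Tregs, for Ccr7 between organs (-0.21 to 0.24) and within iKO mice (-0.0907 to 0.803), and in the interaction for Ccr1 (-1.80 to 0.0227), Ccr2 (-0.42 to 0.53), Ccr4 (-0.547 to 0.0422) and Cxcr3 (-0.21 to 0.35). In CD25- PP Tregs, Ccr4 was at -0.00477 with upper-quartile normalization, and Ccr7 at 0.00343 without a filter and 0.00103 in the joint fit. The causes were not tested.

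Same-numbered libraries did not deviate together throughout (Pearson's r across genes 0.159 in PP, 0.0731 in CD25- PP and 0.16, 0.294 and -0.0211 in colonic Tregs), so the numbers were not taken to pair samples outside the colonic comparison, where they stood for the study's cage. With the replicate number as a block, 6 members were called in PP Tregs (1015 genes against 409), 0 in CD25- PP Tregs and 7 between organs, Ccr4 was at -0.0147 in CD25- PP Tregs and Ccr7 at 0.16 between organs. Without the replicate block, 0 members were called in colonic Tregs. Depth was not varied, and all members were far above the floor of 3 counts.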
